A study of Mus musculus with 2 samples.

Results

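Bidirectional promoters are stretches of DNA from which 2 protein-coding genes are transcribed outward on opposite strands. In the basic gene set of GENCODE mouse release M21, 787 pairs of protein-coding genes met the rule used here. The genes lay on opposite strands and pointed away from each other, and their outermost annotated transcription start sites (TSSs) were at most 1000 bp apart. The 787 pairs lay at 764 loci and held 1551 of the 21938 protein-coding genes, or 7.07%, with 23 genes in more than 1 pair. For each pair the region examined ran from 500 bp outside one TSS to 500 bp outside the other. Membership came from the annotation alone, and no measured value chose a pair, though the rule itself was chosen with earlier results of these data known.

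Head-to-head gene pairs of this kind are a regular feature of mammalian genomes and are known for CpG islands, for few TATA boxes and for housekeeping genes of DNA repair, mitochondria and the cell cycle. Transcription in each direction usually starts from its own core promoter at the edge of a shared nucleosome-depleted stretch. DNase I cuts such exposed DNA, so DNase-seq maps it as hypersensitive sites whether or not the genes are being transcribed strongly.

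The tissue was embryonic hindbrain, which gives rise to the cerebellum, pons and medulla, taken from B6NCrl mouse embryos at 14.5 days of age with males and females pooled. The labels call the 2 libraries biological replicates, each from its own tissue sample and both under 1 donor label. No other tissue, age or treatment was compared, so every value below describes these 2 libraries and none carries a p-value. Pairs are not replicates of the tissue, and the intervals given are 95% Wilson intervals that cover counting error only.

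Replicate 1 held 263679 peaks with a median score of 47, and replicate 2 held 148804 with a median of 30. Every peak was 150 bp wide, and its score was a whole number whose meaning the sources used here do not give, so scores are set side by side as ranks within a library. Hotspots, the wider zones of enriched cutting, numbered 231347 and 133205. The files give no read counts, so the depth of neither library is known. Starts of hindbrain and cerebellar genes carried a peak in both libraries for 12 of 14 genes, all but Hoxb3 and Ptf1a, as did the starts of 5 of 5 pan-neuronal and 4 of 4 neural progenitor genes and of 1 of 4 forebrain genes. None of 4 liver, 3 muscle, 3 leukocyte and 3 endothelial genes did, and of 3 erythroid genes 1 did. Of all protein-coding starts 61% carried a peak in both libraries, a share that differed widely with CpG content. The short lists were not matched for CpG content, so their counts alone do not establish the tissue.

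The letters between the starts show what such a region looks like. The first set below holds pairs known from the literature on shared promoters, a pair from among the 10 with the highest scores, a short mitochondrial ribosomal pair and a histone pair, all of them strongly hypersensitive. Each line gives the plus strand of mm10 (read from GRCm38.p6, RefSeq), 5′ to 3′, from the base after the minus-strand gene's TSS to the base before the plus-strand gene's TSS. Capitals mark exact matches, on either strand, to any of 10 searched words: CCAAT, bound by NF-Y; GGGCGG, bound by SP factors; CCGGAAGT, bound by ETS factors; GCATGCGC, and a longer form of it with the letters GC in front, bound by NRF1; AAGATGGCG, bound by YY1; TGACGTCA, the cAMP response element; ACTACAA, the core of the ZNF143 site; CACGTG, the E-box; and TATAAA.
Hspd1/Hspe1, chr1:55088025-55088131: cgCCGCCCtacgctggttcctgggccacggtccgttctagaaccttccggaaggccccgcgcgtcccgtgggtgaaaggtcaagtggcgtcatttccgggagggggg
Ranbp1/Trmt2a, chr16:18248733-18248882: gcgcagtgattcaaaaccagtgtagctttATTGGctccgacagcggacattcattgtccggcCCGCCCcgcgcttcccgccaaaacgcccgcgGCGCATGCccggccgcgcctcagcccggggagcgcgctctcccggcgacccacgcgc
Aimp2/Pms2, chr5:143909848-143909963: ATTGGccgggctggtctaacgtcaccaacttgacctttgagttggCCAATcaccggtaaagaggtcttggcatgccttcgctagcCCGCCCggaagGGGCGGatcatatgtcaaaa
Rnft2/2410131K14Rik, chr5:118245117-118245226: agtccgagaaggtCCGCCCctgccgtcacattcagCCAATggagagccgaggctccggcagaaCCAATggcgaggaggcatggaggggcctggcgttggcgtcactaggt
Mrpl49/Fau, chr19:6057786-6057843: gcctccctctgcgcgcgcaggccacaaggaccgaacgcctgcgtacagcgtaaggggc
Hist1h2an/Hist1h2bp, chr13:21787219-21787460: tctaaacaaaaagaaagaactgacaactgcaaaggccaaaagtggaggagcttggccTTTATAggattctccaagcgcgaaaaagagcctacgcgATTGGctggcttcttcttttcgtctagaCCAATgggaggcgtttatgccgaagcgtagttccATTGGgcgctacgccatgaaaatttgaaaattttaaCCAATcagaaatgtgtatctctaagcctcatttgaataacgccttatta

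The second set holds pairs with no peak in either library, or in replicate 1 alone for the collagen pair, and is read in the same way. The collagen, cytokine and bestrophin stretches hold 5, 1 and 1 CpG dinucleotides in 126, 77 and 35 bp. The histone stretch holds 15, but it is longer, at 267 bp.
Hist1h2bq/Hist1h2ao, chr13:21810198-21810464: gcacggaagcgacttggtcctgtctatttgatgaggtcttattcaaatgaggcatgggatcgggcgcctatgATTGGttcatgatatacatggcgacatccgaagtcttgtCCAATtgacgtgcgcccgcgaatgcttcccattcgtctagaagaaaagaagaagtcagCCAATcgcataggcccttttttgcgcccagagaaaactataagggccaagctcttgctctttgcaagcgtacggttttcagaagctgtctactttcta
Col4a4/Col4a3, chr1:82586850-82586975: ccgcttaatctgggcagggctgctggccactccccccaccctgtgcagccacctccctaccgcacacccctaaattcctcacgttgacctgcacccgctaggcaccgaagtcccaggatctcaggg
Il11/Tmem190, chr7:4782860-4782936: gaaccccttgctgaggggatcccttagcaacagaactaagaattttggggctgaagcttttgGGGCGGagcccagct
Best1/Rab3il1, chr19:10001634-10001668: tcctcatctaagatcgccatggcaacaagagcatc

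Almost every bidirectional promoter was hypersensitive in this tissue. A peak overlapped 754 of the 787 pair regions in both libraries, or 95.8% (94.2 to 97), against 11089 of 19381 single promoters, or 57.2% (56.5 to 57.9). A single promoter here is a protein-coding TSS with 500 bp on each side and no other protein-coding TSS within 1000 bp. Over all 21938 protein-coding start regions the background was 61%. Promoters in which a coding gene faced a long noncoding RNA instead of a coding gene lay between the classes, with 705 of 813 called in both libraries, or 86.7%.

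The libraries gave nearly the same picture for the pairs. In replicate 1 a peak lay in 756 pair regions (96.1%), against 12138 single promoters (62.6%) and a background of 66%. In replicate 2 it lay in 754 pair regions (95.8%), against 11200 single promoters (57.8%) and a background of 61.6%. A peak in replicate 1 alone was found in 2 pairs, against 1049 single promoters (5.41%) and a background of 4.96%, and no pair had one in replicate 2 alone. The remaining 31 pairs, or 3.94%, had no peak in either library, against 36.8% of single promoters and 33.5% of all coding starts. The gap of 38.6 percentage points between pairs and single promoters was 33.4 points in replicate 1 and 38.0 points in replicate 2.

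The peaks over pairs were also strong ones. The strongest peak of a called pair region had a median score of 139 in replicate 1 (quartiles 131 and 144) and 110 in replicate 2 (100 and 117). Single promoters had medians of 125 (90 and 138) and 92 (59 and 109). As ranks among all peaks of a library, the pairs' medians were the 98.6th and 97.6th percentiles, against the 96.3rd and 94.2nd for single promoters. Above the 90th percentile of a library lay the strongest peak of 95.8% of called pairs in replicate 1 and 92.7% in replicate 2, against 71.6% and 63.2% of called single promoters. Above the 99th percentile the shares were 36.8% and 24% of called pairs, against 14.8% and 9.90% of called single promoters. Weak pairs were few, and the lowest score of a called pair was 25 in replicate 1 and 17 in replicate 2.

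**Figure D1:**
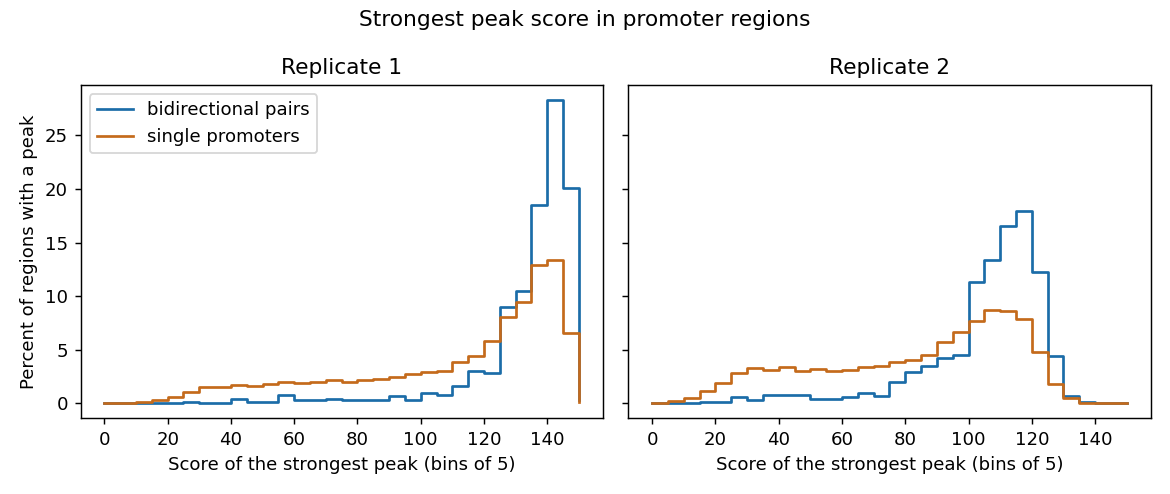
Score of the strongest peak (x axis, in bins of 5) as a percent of called regions (y axis) for bidirectional pairs and single promoters in each library. The pairs gather near their medians of 139 and 110, while single promoters have a long tail of low scores.

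Pair regions held more peaks and more hotspot sequence. At least 2 peaks overlapped 63.7% of pair regions in replicate 1 and 59.5% in replicate 2, against 34.3% and 31.5% of single promoters. Pair regions were longer, with a median of 1145 bp against 1001 bp, and per kb they held 1.52 and 1.51 peaks, against 1.05 and 0.986 in single promoters. Hotspots covered a median of 94.9% of a pair region in replicate 1 and 82.4% in replicate 2, against 62.9% and 36.2% of a single promoter region. The most significant hotspots, those listed at the −log10 q-value ceiling of 100, touched 95.3% and 93.3% of pair regions, against 56.8% and 48.1% of single promoters. Outside the promoter the classes looked alike, with a median of 3 distal peaks shared by the libraries within 50 kb of a pair and 3 within 50 kb of a single promoter.

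CpG content moved with the class. The ratio of observed to expected CpG dinucleotides had a median of 0.759 around pair starts and 0.517 around single starts, and GC content was 59.3% against 54.4%. When all protein-coding starts were ranked by that ratio and split into 10 equal classes, 687 pairs (87.3%) fell in the upper 5 classes, against 8875 single promoters (45.8%). There, 683 of 687 pairs (99.4%) had a peak in both libraries, against 95% of single promoters. In the lower 5 classes 71 of 100 pairs (71.0%, interval 61.5 to 79.0) had one, against 25.3% of single promoters.

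Within single CpG classes the gap narrowed toward the CpG-rich end. Classes 1 to 4 held few pairs, and 0 of 3, 1 of 4, 3 of 11 and 10 of 20 pairs were called there in both libraries, against 1.59%, 5.02%, 11.5% and 36.6% of single promoters. In class 5, 91.9% of 62 pairs were called in both libraries, against 75.4% of single promoters, and in class 6 the shares were 99% and 89.4%. In classes 8 and 9 every pair was called (162 and 161 pairs), against 95.9% and 97.9% of single promoters. In class 10 the shares were 98.3% for pairs and 98.2% for single promoters. With single promoters reweighted to the CpG classes of the pairs, the gap in the share called in both libraries was 5.50 points instead of 38.6. The same reweighting left 1.90 of 2.86 percentile points between the median score ranks, and 2.08 of 39.1 points between the median hotspot coverages. Median coverage was higher in pairs in classes 4 to 8 but lower in classes 9 and 10. There it was 98.7% and 99.7% in replicate 1, against 99.9% and 100% in single promoters. In replicate 2 it was 84.7% and 89.1%, against 87.0% and 92.5%.

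**Figure D2:**
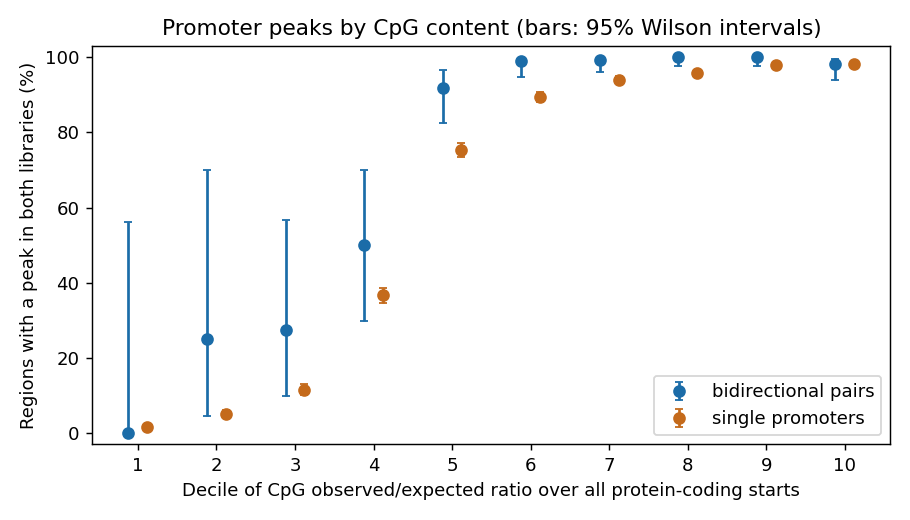
Share of regions with a peak in both libraries (y axis) by CpG class (x axis, 1 lowest to 10 highest) for bidirectional pairs and single promoters, with 95% Wilson intervals. The pairs sit above single promoters in classes 2 to 9, with wide intervals in classes 1 to 4, which hold 3 to 20 pairs each.

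The layout of the peaks went with the distance between the starts. The starts lay a median of 144 bp apart (quartiles 76 and 276.5 bp, range 1 to 996 bp), and 610 pairs (77.5%) were within 300 bp. Over 5 classes of distance the share called in both libraries ran from 93.3% to 97.7%, with overlapping intervals and in no order of distance. The number of peaks near the starts differed more. Among pairs at 1 to 100 bp, 1 peak came within 100 bp of both starts in 93.7% of pairs in each library. Above 100 and up to 200 bp that share was 88.7% in each library, and from there to 300 bp it was 58.6% in replicate 1 and 51.4% in replicate 2.

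Wider pairs had separate peaks or a peak at one start. Above 300 and up to 500 bp, 9.09% of 88 pairs in replicate 1 and 5.68% in replicate 2 had 1 peak near both starts, while 46.6% and 39.8% had a separate peak near each. Above 500 bp, separate peaks near each start were found in 49.4% of pairs in replicate 1 and 44.9% in replicate 2, and a peak near only 1 start in 36.0% and 40.4%. Since a peak is 150 bp wide, 1 peak can come within 100 bp of both starts only where they lie close. The geometry alone fixes the absence of such peaks in the widest class and in the wider pairs of the class below it. The fall in this form beyond 300 bp is thus at least partly set by the measure. Hotspots have no set width. Both starts lay in a hotspot, either the same one or 2 different ones, in 91.2% of all pairs in replicate 1 and 88.9% in replicate 2. That share was 96.2% and 95.5% for the closest pairs and 74.2% and 66.3% for the widest.

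**Figure D3:**
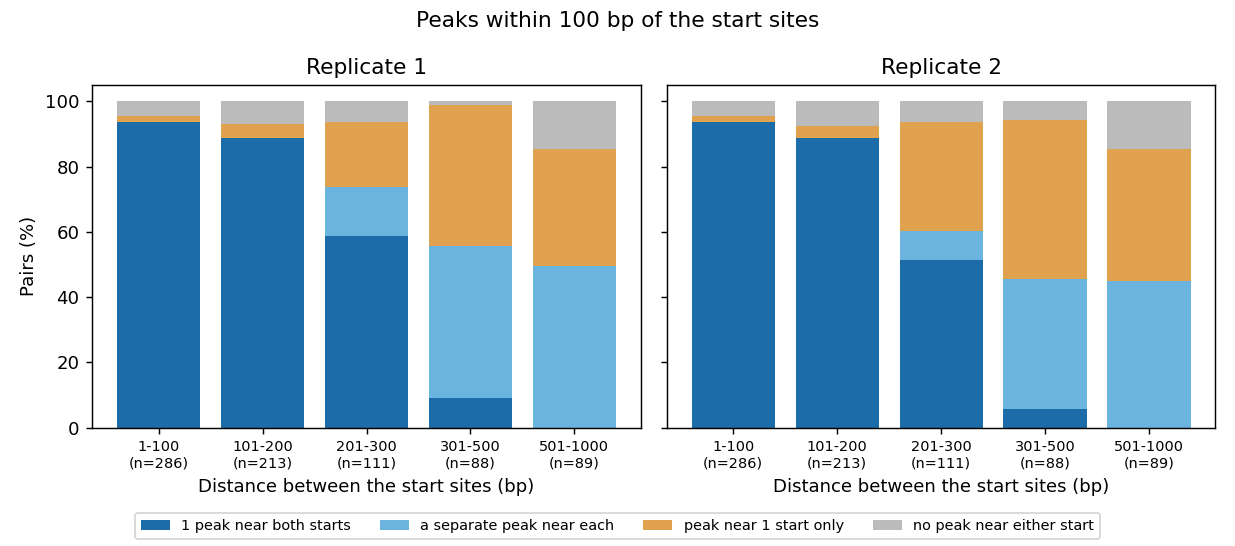
Percent of pairs (y axis) in each class of distance between the starts (x axis, n below each bar) by where peaks lay relative to the starts, within 100 bp, in each library. A peak near both starts is the main form up to 300 bp and rare beyond it, where the fixed peak width limits it.

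The strongest peak sat between the starts in most pairs. Its midpoint fell between the TSSs in 71.3% of called pairs in replicate 1 and 74.9% in replicate 2. The share was lowest where the space was shortest, 56.5% and 61.9% at 1 to 100 bp, and reached 79.4% and 80.3% in the next class, up to 200 bp. The midpoint lay a median of 38.3 bp from the centre of the pair in replicate 1 and 34.8 bp in replicate 2, but 289 and 302 bp from it in pairs more than 500 bp apart, where the peak kept near one start. Over all pairs neither strand led, as the minus-strand TSS was the nearer in 49.3% and 50% of called pairs. In pairs more than 500 bp apart the shares were 61.4% and 65.1% (51 and 54 of 83 called pairs). Where peaks tied for the highest score, the one at the lowest coordinate, toward the minus-strand gene, was taken. The part of such ties in these shares was not tested, so they do not establish a lead of one strand. Measured from the nearer TSS, the midpoint lay a median of 25 bp upstream in replicate 1 and 28 bp in replicate 2. In single promoters the midpoint lay 27 and 28 bp upstream of the start. In a pair this distance can reach no further upstream than the centre between the starts, a limit that single promoters lack. The medians therefore do not show that placement is equal.

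**Figure D4:**
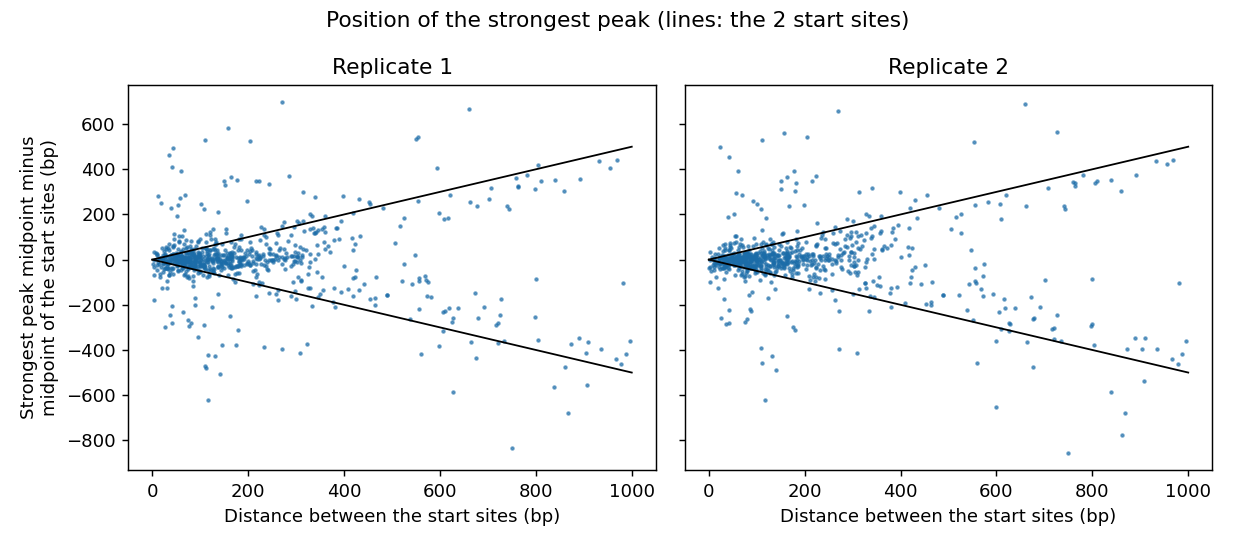
Position of the strongest peak's midpoint relative to the centre of the pair (y axis, bp; positive toward the plus-strand gene) against the distance between the starts (x axis, bp), 1 point per called pair in each library. The lines mark the starts, and most points lie between them, close to the centre in narrow pairs and near one line in wide pairs.

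Strength varied among the pairs at both ends of the distance range. The closest pair, Bag4/Lsm1, has its starts 1 bp apart and joins a co-chaperone of Hsp70 to a subunit of the cytoplasmic mRNA decay complex. Its strongest peak scored 143 in replicate 1 and 115 in replicate 2. Ndufs1/Eef1b2, a respiratory complex I subunit beside a translation elongation factor, had starts 3 bp apart and scores of 142 and 113. Dhrs1/Nop9, also 3 bp apart, scored lower, 113 and 76, below the lower quartiles of all pairs. At the other end, the 3 pairs just inside the limit of 1000 bp were Proser3/Hspb6 at 996 bp (143 and 108), Btf3l4/Txndc12 at 987 bp (140 and 124) and Asphd1/Sez6l2 at 981 bp (126 and 88), the last of them below both lower quartiles. The 3 pairs just outside it were Nacc1/Trmt1 at 1004 bp (141 and 103), 5330417C22Rik/1700013F07Rik at 1005 bp (130 and 87) and Ddias/Prcp at 1005 bp (131 and 111).

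Among 20 gene pairs listed as textbook cases, 11 met the rule and 10 of these had a peak in both libraries, as did 95.8% of all pairs. Hspd1/Hspe1, the mitochondrial chaperonin Hsp60 and its cofactor Hsp10, had starts 108 bp apart and 1 peak in each library, with scores of 146 in replicate 1 and 123 in replicate 2. Its peak midpoint lay at -28 bp and -8 bp from the centre, on the Hspd1 side, and hotspots covered the whole region in both libraries. Ranbp1/Trmt2a, a regulator of the Ran GTPase beside a tRNA methyltransferase, also had 1 peak in each library, scoring 146 and 120. Both pairs thus showed a lone peak over the stretch printed above.

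Textbook pairs of DNA repair and replication genes also had strong peaks, as most pairs did. Aimp2/Pms2, a scaffold of the tRNA synthetase complex beside a mismatch repair gene, scored 147 and 119. Mcm4/Prkdc joins a subunit of the replicative helicase to the catalytic subunit of the DNA-dependent protein kinase and scored 147 and 121. Atm/Npat, a DNA damage kinase beside a coactivator of histone genes, had starts 307 bp apart and scores of 144 and 115. Each of these ranked at or above percentile 98.6 in both libraries.

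The other textbook pairs showed some spread. Mrps12/Sars2, which serve mitochondrial translation, scored 147 in replicate 1 and 100 in replicate 2, the strongest peak lying at -21 bp from the centre on the Mrps12 side in replicate 1 and at 339 bp on the Sars2 side in replicate 2. Psmb1/Tbp, a proteasome subunit beside the TATA-binding protein, scored 137 and 110. Tsc2/Nthl1, a brake on mTORC1 signalling beside a DNA glycosylase, had starts 52 bp apart and scores of 132 and 94. For Brca1/Nbr1 the strongest peak scored 144 and 109 but its midpoint lay 696 and 656 bp from the centre, past the region's end inside Nbr1, so its rank does not describe the 270 bp between the starts. The exception was Col4a4/Col4a3, type IV collagen chains of specialised basement membranes, with 2 peaks of at most 44 in replicate 1 and none in replicate 2.

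The 10 pairs with the highest score ranks over both libraries held genes of varied function. Cep57/Fam76b, with a centrosomal protein gene, came first with scores of 149 in replicate 1 and 135 in replicate 2. Tada2b/Ccdc96, with a subunit of the SAGA acetyltransferase complex, scored 149 and 132, and Dtl/Ints7, with a substrate receptor of the CRL4 ubiquitin ligase and an Integrator subunit, scored 148 and 132. Safb2/Safb, related genes for scaffold attachment factors, scored 148 and 130. Rbbp4/Zbtb8os and Gm10644/Asf1b each hold a histone chaperone gene, and Rsrc2/Kntc1 holds a kinetochore gene. Their replicate 1 scores were 148, 147 and 147, and their replicate 2 scores 127, 128 and 128. Rnft2/2410131K14Rik (148 and 128), Senp8/Myo9a (148 and 127) and Txndc9/Eif5b (148 and 126) completed the 10, though in Txndc9/Eif5b the strongest peak lay at -621.5 bp from the centre, at the edge of the region on the Txndc9 side.

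Hotspot length picked out other pairs. The longest hotspot of replicate 1 was at Brd2/H2-DMa, a chromatin reader beside a gene of antigen presentation, with 5406 bp, but it was 1183 bp in replicate 2. At Peg3/Usp29, an imprinted pair expressed from the paternal copy, the hotspot was 4257 bp in replicate 1 and 2790 bp in replicate 2. At Mrps18b/Ppp1r10 it was 4182 and 3287 bp. These last pairs were the only ones among the 5 longest in both libraries. Hnrnph3/Pbld2 (4533 and 1714 bp) and Srgap2/Fam72a (3620 and 1870 bp) completed the list of replicate 1. Prune1/Mindy1 (1680 and 3482 bp), Hnrnpa2b1/Cbx3 (2870 and 2971 bp) and Bzw2/Ankmy2 (3386 and 2841 bp) completed that of replicate 2. By peaks summed over the libraries, 2700097O09Rik/Srp54a, with a gene of the signal recognition particle, had the most, 5 in replicate 1 and 6 in replicate 2, while H2-T22/Gm6034 had 6 and 3. Only 50.4% and 63.1% of the 31-mers in these regions occur once in the genome. Where a region touched a hotspot, the median length of its longest one was 1340.5 bp in replicate 1 and 1024 bp in replicate 2 for pairs, against 1160 and 822 bp for single promoters. Such regions were 96.3% and 95.9% of pairs, against 63.2% and 58.1% of single promoters.

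Gene families were represented unevenly among the pairs. Symbols beginning as mitochondrial ribosomal protein genes had 21 of 78 genes in pairs (26.9%), and those of the respiratory chain and ATP synthase, assembly factors included, had 20 of 99 (20.2%). The DNA repair and replication list had 15 of 52 (28.8%), aminoacyl-tRNA synthetases 6 of 34 and proteasome subunits 6 of 40. Cytoplasmic ribosomal protein symbols had 10 of 98 (10.2%, including Rps6kb1, a kinase gene that the pattern also takes) and zinc finger symbols 21 of 397 (5.29%), where all protein-coding genes had 7.07%. Collagen symbols had 3 of 45, which includes Col4a3bp, not a collagen gene, and of their 2 pairs 1 was called in both libraries. None of 102 genes on a list of homeobox and neural transcription factors, with Hox, Dlx, Lhx, Pax, Sox, Zic, Irx, Olig and like symbols, was in a pair, but that list does not take in every homeobox or neural factor, and Hmbox1 and Nr2e1, outside it, are in pairs. Families were not tested for enrichment, and their lists were written with earlier results of these data known.

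Nearly all pairs of these families were hypersensitive, as were pairs in general. A peak in both libraries was found in 20 of 20 mitochondrial ribosomal pairs, 21 of 21 respiratory chain pairs, 10 of 10 cytoplasmic ribosomal pairs, 6 of 6 proteasome pairs, 6 of 6 synthetase pairs and 18 of 18 zinc finger pairs. Their median scores ranged from 134 to 140.5 in replicate 1 and from 107 to 112.5 in replicate 2, beside 139 and 110 for all pairs. The repair list had 13 of 14 pairs called, with medians of 140 and 111. The one left out, Pinlyp/Xrcc1, whose Xrcc1 encodes the scaffold of base excision and single-strand break repair, had no peak although a hotspot of 811 bp in replicate 1 and 623 bp in replicate 2 touched the region.

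Most called histone pairs combined strong peaks with low hotspot coverage. Of 67 histone cluster genes, 27 (40.3%) lay in 14 pairs, most of them an H2A gene facing an H2B gene on chromosome 13. A peak in both libraries was found in 11 of the 14, against 95.8% of all pairs. In those 11 the strongest peak scored 121 to 145 in replicate 1 and 71 to 117 in replicate 2, with medians of 137 and 97 beside 139 and 110 for all pairs, and Hist1h2an/Hist1h2bp reached 145 and 117. The replicate 2 median lay below the lower quartile of all pairs, 100. Hotspots, in contrast, covered a median of 26.4% of their regions in each library, against 94.9% and 82.4% for all pairs. Coverage was higher at Bola1/Hist2h2ab (96.6% in both libraries), Hist2h2ac/Hist2h2be (90.6% in replicate 1 and 84.7% in replicate 2) and Hist1h2bh/Hist1h3f (69.3% and 76.6%).

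Sequence uniqueness moved with these values. A median of 46.7% of the 31-mers in the 11 called histone regions occurred once in the genome (range 39.7% to 89.3%), while the median over all 787 pairs was 100% and only 48 pairs were under 90%. In Hist1h2bq/Hist1h2ao and Hist1h2ap/Hist1h2br, both without a peak or hotspot, 0% of the 31-mers were unique, so a read of that length from these regions has more than 1 possible origin. In the third uncalled pair, Hist1h2ba/Hist1h2aa, which encodes testis-specific histones, 83.1% were unique. The bases between starts resembled each other across histone pairs, with CCAAT in 14 of 14 and TATAAA in 9 of 14, against 305 and 24 of the other 773 pairs. Of all pairs with at least 90% unique 31-mers, 716 of 739 (96.9%) were called in both libraries, against 38 of 48 (79.2%) below that. The part of read placement in the values of the histone pairs was not tested.

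**Figure D5:**
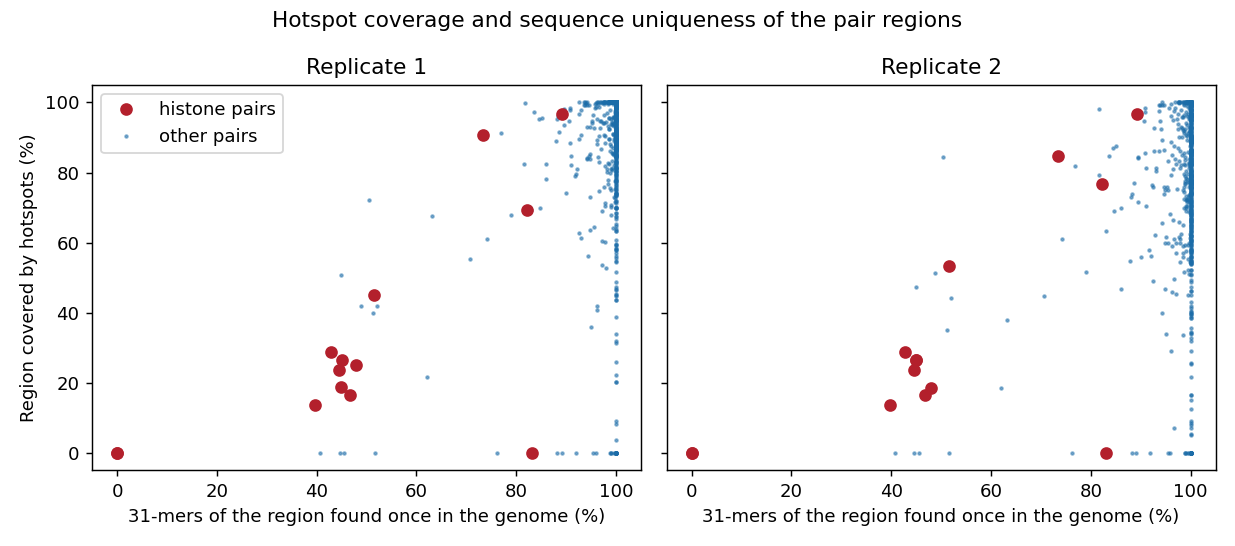
Percent of a pair region covered by hotspots (y axis) against the percent of its 31-mers that occur once in the genome (x axis), 1 point per pair in each library, with the 14 histone pairs marked. Histone pairs with 39.7% to 51.5% unique 31-mers had at most 53.4% of their region in hotspots.

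A start outside any hotspot faced a start inside one in 29 pairs in replicate 1 and 41 in replicate 2, and in 26 pairs the same start was the open one in both. These pairs were picked after their values were seen. Of the 26, 15 had starts more than 500 bp apart and 6 were histone pairs. The genes on the open and the closed side followed no single pattern, and the examples below are not a tally. Sympk, of the mRNA 3′ end machinery, was open while Foxa3, an endodermal transcription factor, was not, 839 bp away and 698 bp from the nearest peak in both libraries. Also open were the protein phosphatase gene Ppp1ca beside Tbc1d10c, Zdhhc24 beside the muscle actinin gene Actn3, and the nucleolar gene Nol9 beside the taste receptor gene Tas1r1. The closed starts of Tbc1d10c, Actn3 and Tas1r1 lay 692, 627 and 183 bp from the nearest peak in replicate 1. In replicate 2 these distances were 292, 647 and 648 bp. In other pairs the start outside the hotspots was that of a broadly used gene. These were Nudt21 of mRNA 3′ end formation beside Ogfod1, the mitochondrial gene Chchd10 beside Mmp11, and the heat shock gene Hspa1a beside the testis gene Hspa1l. From the starts of Nudt21, Chchd10 and Hspa1a the nearest peak lay 45, 565 and 220 bp away in replicate 1. In replicate 2 it lay 25, 525 and 240 bp away. Only 83.0% of the 31-mers in the Nudt21/Ogfod1 region and 62.1% in the Hspa1a/Hspa1l region occur once in the genome. The part of read placement there was not tested.

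Some open starts belonged to neural genes. Sncg, which encodes gamma-synuclein, lay in a hotspot, while the start of Mmrn2, an endothelial matrix gene 676 bp away, was 700 bp from the nearest peak in replicate 1 and 740 bp in replicate 2. The strongest peak of the pair scored 79 and 43. Cntnap1, a gene of the axon-glia junction, lay in a hotspot facing the closed start of the chemokine receptor gene Ccr10 at 598 bp, with scores of 94 and 49. The Ccr10 start was 278 bp from the nearest peak in both libraries. In the opposite sense, the start of Nr2e1, a nuclear receptor gene of neural stem cells, lay outside the hotspot that held Ostm1 203 bp away. The scores there were low, 53 and 37, and the Nr2e1 start was 104 bp from the nearest peak in both libraries. Each hotspot shows exposed DNA and not transcription.

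The 31 pairs without a peak in either library were mostly CpG-poor, with a median CpG ratio of 0.288 and 27 of 31 in the lower 5 CpG classes. The 10 with the closest starts were mixed in what they hold. Plcz1/Capza3 joins the sperm phospholipase that activates the egg to a sperm actin-capping subunit, and Dgcr2/Tssk1 holds a testis-specific kinase. Patl2/Terb2 holds genes of oocytes and of meiotic telomeres. Il11/Tmem190 holds a cytokine gene and Best1/Rab3il1 the chloride channel of the retinal pigment epithelium. Ccnt1/4930415O20Rik, at 81 bp, and Apex2/Pfkfb1, at 77 bp, hold widely expressed genes, cyclin T1 of transcription elongation and a DNA repair nuclease. For these 4 genes the start taken as principal, the outermost such start, coincides with the outermost one and carried no peak in either library. Starts further inside these genes were not examined, so the genes may have a hypersensitive start elsewhere. Slc30a3/Dnajc5g, Nmur1/Tex44 and Fam217a/4933417A18Rik completed the 10.

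Annotation bore on some of these. The rule takes each gene's outermost start, and in 4 of the 31 pairs the principal start of one gene lay elsewhere and carried a peak. These genes were Nmur1, Slc30a3, Dgcr2 and Rab3il1, with the principal start 36884, 14622, 2406 and 16524 bp from the outermost one. Dgcr2 and Slc30a3, a zinc transporter gene of synaptic vesicles, thus had a hypersensitive start apart from the one they share with their neighbour. Of the 31 pairs 2 touched a hotspot, Pinlyp/Xrcc1 in both libraries and Tssk3/Fam229a, with 414 bp, in replicate 1, the second named after its values were seen.

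The CpG-rich exceptions were 4, the 3 histone pairs above and Gm4779/8030474K03Rik on chromosome X. Peaks in replicate 1 alone were found at Odf3l1/Cspg4, where the peak scored 69, and at Col4a4/Col4a3. The weakest pairs called in both libraries, picked after their values were seen, were Nt5c3b/Klhl10, with a testis gene and scores of 25 and 17, and Duox2/Duoxa2, a thyroid oxidase and its maturation factor, with 44 and 24.

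The scores of the libraries went together across the pairs. Across the 754 pairs called in both, the scores had a Spearman correlation of 0.734 and a Pearson correlation of 0.878, against 0.921 and 0.927 across 11089 single promoters, whose scores spread over a wider range. All points of a class share the same 2 libraries. The largest difference was at S100a1/S100a13, calcium-binding protein genes, with scores of 69 in replicate 1 and 26 in replicate 2 and percentiles of 74.4 and 40.6. Dok1/Loxl3 scored 93 and 39 and Cenpj/Parp4 74 and 35. Of the 10 pairs with the largest differences, 9 ranked higher in replicate 1, and Nup62cl/Pih1h3b alone ranked higher in replicate 2 (percentiles 38.8 in replicate 1 and 55.1 in replicate 2).

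Short sequence words differed between the promoters of pair genes and of single genes. Each word was sought on both strands from 250 bp before to 50 bp after the outermost start, in 1551 pair genes and 19381 single genes. CCGGAAGT was found in 12.6% of pair genes and 4.14% of single genes, AAGATGGCG in 5.29% and 1.46%, and GCATGCGC in 7.16% and 3.52%. The longer NRF1 word, which contains the preceding one, was found in 3.09% and 1.07%, and TGACGTCA in 4.96% and 2.29%. TATAAA was the one word rarer in pair genes, at 4.32% against 13.3%. Windows of facing genes overlap when their starts are close, so 1 match can count for both genes of a pair. With a median of 144 bp between starts, the window of most pair genes also takes in the partner's start. A single gene's window holds no outermost start of another coding gene. Between the starts, CCGGAAGT was found in 7.24% of pairs, GCATGCGC in 5.21% and AAGATGGCG in 0.889%. The part of the window in these differences was not tested.

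CpG content again moved with part of this. After single genes were weighted to the CpG classes of the pairs, their shares were 6.93% for CCGGAAGT, 2.58% for AAGATGGCG, 5.53% for GCATGCGC and 7.34% for TATAAA. The SP word, found in 68.0% of pair genes and 42.7% of single genes, stood at 67.8% in the weighted single genes. The E-box stood at 9.86% in pair genes, 7.61% in single genes and 10.6% in weighted single genes. The NF-Y word was at 43.9% in pair genes, 38.7% in single genes and 37.3% in weighted single genes, and the ZNF143 core at 5.93%, 3.64% and 3.59%.

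Between the starts themselves, GGGCGG was found in 436 pairs (55.4%) and CCAAT in 319 (40.5%). The 58 bases of Mrpl49/Fau, a mitochondrial ribosomal gene facing a gene for a ribosomal protein of the cytoplasm, hold none of the 10 words, and its peaks scored 146 and 124. Aimp2/Pms2, printed above, has both words on both strands, and Hist1h2an/Hist1h2bp has CCAAT 4 times and TATAAA once. Pairs with GGGCGG between the starts were called in both libraries in 97.9% of cases, against 93.2% of pairs without it, and for CCAAT the shares were 95% and 96.4%. With CCAAT the median scores were 142 and 112, against 137 and 108 without it. The pairs with CCAAT were also wider, with a median of 236 bp between starts against 95 bp, and longer stretches hold more words. A word match is a string of letters and does not show that a factor is bound.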

How the data were processed

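DNase-seq was measured in 2 hindbrain libraries, 1 group of 2 labelled biological replicates. The deposited peak lists carry a score per peak, a whole number of unstated meaning, and the deposited hotspot lists a −log10 q-value from 1.30 to 6.00 or exactly 100, taken as a ceiling that 35.2% and 30.2% of hotspots reach. Per the text deposited with the samples, both were made for each replicate alone from filtered mm10 alignments. Which aligner and caller were used, and with what cut-offs, is not given in the sources used here, nor is sequencing depth, so no precision from depth can be given.

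From these files, pairs were built on GENCODE M21 basic protein-coding genes and overlapped with peaks (at least 1 bp) and hotspots with Python 3.11.15, numpy 2.4.6, pandas 2.3.3 and scipy 1.17.1. Sequence came from GRCm38.p6 (RefSeq) through pysam 0.24.0, and 31-mers were counted with numba 0.67.0. Peaks on unplaced contigs and the mitochondrial genome (253 and 303) were left out. The steps were tested on simulated data with planted shares, scores and coverage.

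Replicates were not pooled. No test was possible between groups, so values are descriptions, with 95% Wilson intervals. Pairs named are the 10 with the highest ranks, up to 10 closest without peaks, those called in 1 library, the longest hotspots, most peaks, closest starts, both sides of the 1000 bp limit, textbook pairs, family members and the 10 largest differences between libraries. The rule for the pairs, the lists, words and alternatives were chosen with earlier results of these data known. Of the alternatives, 14 were planned and 3 added after these values were seen. Of 20 textbook pairs 9 did not meet the rule. One of the textbook pairs that met it is counted but not otherwise reported here.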

Additional observations from a re-analysis of the deposited data

How the results depend on the processing

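Of 110 alternative values of the 9 main results, 77 moved by less than the spread between libraries or their counting interval, and 33 moved by more. For results that are means of the 2 libraries, the values from 1 library alone were bound to stay within that spread, so they show nothing about stability. Only the gaps between pairs and single promoters, taken over all CpG classes together, could change sign, and none did. With replicate 1 or replicate 2 alone, the share of pairs called was 95.8% to 96.1%, the gap to single promoters 33.4 to 38.0 points, the median percentile 97.6 to 98.6 and its gap 2.29 to 3.44, hotspot coverage 82.4% to 94.9% and its gap 32.0 to 46.3 points, peaks per kb 1.51 to 1.52 and the share of peaks between the starts 71.3% to 74.9%.

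The largest moves came from reweighting single promoters to the pairs' CpG classes, where the gaps in calls, percentile and coverage were 5.50, 1.90 and 2.08. Counting peaks by their midpoint gave 1.40 peaks per kb. Requiring the libraries' peaks to overlap by 50% gave 93.8% of pairs by either count. Keeping peaks at or above the median score gave 95.3% called per library, a gap of 41.1 points and 1.33 peaks per kb, and hotspots at the ceiling alone gave a coverage gap of 57.1 points. Starts at most 500 bp apart gave 96.3% per library and 1.53 peaks per kb. Adding pairs with overlapping 5′ ends gave 91.5% in both libraries, 92.6% per library, a gap of 34.3 points, 1.85 peaks per kb and 63.2% between the starts. Principal starts gave 96.9% per library, 1.53 peaks per kb and 75.7% between the starts. A flank of 250 bp gave 95.3% per library, a gap of 40.6 points, coverage of 100% and 1.96 peaks per kb. A flank of 1000 bp gave 96.3%, 36.5 points, 59.7% and 1.10 peaks per kb, with a coverage gap of 28.5 points. Single promoters with no other gene start gave a gap of 41.5 points. Pairs with at least 90% unique 31-mers, added after seeing the data, gave 97% per library and 1.51 peaks per kb. Apart from the CpG weights and the definitions themselves, the cause of these moves was not tested.

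No paired analysis was possible because the study has 1 group, so the replicate numbers pair nothing. The unknown depth and the unstated meaning of the score limit comparison of the libraries to ranks, and single-library calls of weak pairs cannot be told apart from depth.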
